A study of Mus musculus with 3 samples.

Results

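The genes described here are 10 targets of the hypoxia-inducible factors (HIF) that lie outside glycolysis: Vegfa, Vldlr, Egln1, Egln3, Ddit4, Bnip3, Bhlhe40, Hilpda, Plod2 and P4ha2. They were chosen by symbol in the platform's probe table, with their signals on these arrays already known, and hold 20 of the 25697 probes and 10 of the 16593 named genes. Expression was measured on Illumina bead arrays, 1 array per line, in 3 untreated mouse pluripotent cell lines. E3 (hybrid background) and T9 (129 background) are epiblast stem cell (EpiSC) lines, which resemble the epiblast of the implanted embryo. They were grown on inactivated CF1 mouse embryonic fibroblasts in KSR medium with FGF2 at 5 ng/ml and were collected at subconfluence with collagenase IV, leaving few feeders. OG2 (hybrid background) is an embryonic stem cell (ESC) line, which resembles the epiblast before implantation. It was grown on gelatin without feeders, also in KSR medium, with the MEK inhibitor PD0325901 at 1 uM, the GSK3 inhibitor CHIR99021 at 3 uM and LIF at 1000 U, and was collected on its dish. Cell type, line, medium, feeders and harvest therefore differed together between EpiSC and ESC and cannot be told apart. T9 also differed from OG2 in background, which cannot be told apart from these either. The labels give no oxygen level.

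HIF is a pair of transcription factor subunits, an oxygen-regulated alpha subunit and the constant subunit Arnt. Prolyl hydroxylases of the Egln family use oxygen to hydroxylate the alpha subunit, which the Vhl ubiquitin ligase then sends for degradation. When oxygen is short the alpha subunit persists, pairs with Arnt and binds a short core motif near its targets. Egln1 and Egln3 are themselves HIF targets, which closes a feedback loop. The other targets serve blood vessel growth (Vegfa), lipoprotein uptake (Vldlr), restraint of growth signalling (Ddit4), removal of mitochondria (Bnip3), repression of transcription (Bhlhe40), lipid storage (Hilpda) and maturation of collagen (Plod2, P4ha2). Several of them also respond to other stresses and to growth factors. Primed pluripotent cells such as EpiSC are known for a glycolytic metabolism in which HIF takes part.

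The HIF core motif was searched as ACGTG and GCGTG on both strands in the 250 bases before each RefSeq transcription start (build GRCm38.p6). Promoter windows were found for 8 of the 10 genes, with 11 starts between them, and Bhlhe40 and Plod2 were not among them. Of the 11 windows 7 held a match, as did 38.6% of all 32817 windows of the same length and 56.8% of the 18233 windows with at least 5 CpG. The motif contains a CpG, and the windows of these genes held between 5 and 51 CpG, with a median of 18 against a median of 6 over all windows. A CACGTG hexamer, in which the motif is found on both strands, was present in the Bnip3 window alone among the 11. The windows of 5 genes are shown, since they cover a gene detected brightly in EpiSC alone (Egln3), a gene measured by a single bright probe (Ddit4), both hydroxylase genes, a dim collagen enzyme gene (P4ha2) and a gene with no match at either start (Vldlr). Capitals mark the matches. They stand at chr12:54203875-54204124 (Egln3, minus strand), chr8:124949255-124949504 (Egln1, minus strand), chr10:59951771-59952020 (Ddit4, minus strand), chr11:54100674-54100923 (P4ha2, plus strand) and chr19:27216234-27216483 (Vldlr, plus strand), each ending at the base before the start.
Egln3: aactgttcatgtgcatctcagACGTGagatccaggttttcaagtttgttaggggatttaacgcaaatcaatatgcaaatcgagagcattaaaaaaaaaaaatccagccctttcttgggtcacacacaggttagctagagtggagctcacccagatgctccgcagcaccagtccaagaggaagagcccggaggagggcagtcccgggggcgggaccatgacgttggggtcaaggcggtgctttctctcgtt
Egln1: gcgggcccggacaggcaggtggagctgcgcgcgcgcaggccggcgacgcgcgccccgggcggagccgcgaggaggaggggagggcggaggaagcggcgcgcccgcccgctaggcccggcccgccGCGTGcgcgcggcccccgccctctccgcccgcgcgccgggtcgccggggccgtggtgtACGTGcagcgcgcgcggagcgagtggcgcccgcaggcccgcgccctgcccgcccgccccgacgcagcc
Ddit4: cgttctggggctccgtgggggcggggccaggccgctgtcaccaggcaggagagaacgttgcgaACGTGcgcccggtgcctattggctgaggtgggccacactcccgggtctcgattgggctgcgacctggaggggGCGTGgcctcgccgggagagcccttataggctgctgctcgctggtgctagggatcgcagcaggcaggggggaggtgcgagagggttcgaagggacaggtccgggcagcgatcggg
P4ha2: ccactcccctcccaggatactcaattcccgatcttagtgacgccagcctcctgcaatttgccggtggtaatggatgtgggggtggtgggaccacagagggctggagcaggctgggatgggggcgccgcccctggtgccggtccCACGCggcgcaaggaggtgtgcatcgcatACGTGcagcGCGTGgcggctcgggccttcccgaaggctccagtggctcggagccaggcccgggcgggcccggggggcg
Vldlr: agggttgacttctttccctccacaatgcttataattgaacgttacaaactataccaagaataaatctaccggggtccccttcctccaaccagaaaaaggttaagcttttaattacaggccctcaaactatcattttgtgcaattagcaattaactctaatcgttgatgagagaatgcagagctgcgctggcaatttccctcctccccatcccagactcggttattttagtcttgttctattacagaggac
Counted from the start, the single Egln3 match began at -229 and the Egln1 matches at -126 and -68. A match describes these letters only, and binding was not measured here.

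Probes detected (detection p under 0.01) numbered 10791 in E3, 11171 in T9 and 10768 in OG2. Over detected probes the bead standard error had a median between 4.17% and 4.36% of the signal on each array. With 1 array per line, precision is limited by their number. Over all tested probes 1.15% passed the limma test of EpiSC against ESC in either direction. With no filter on dim probes or with the authors' processed values 0 passed (unadjusted p under 0.05 for 4462 and 2899 probes). The labels matched their markers: 5 of 6 measured naive genes fell in EpiSC (limma, Benjamini-Hochberg adjusted p under 0.05), with Esrrb at normalized log2 levels of 5.46 in E3 and 6.46 in T9, compared with 12.54 in OG2, and 3 of 7 primed genes rose, with Pou3f1 at 9.16 and 9.02 against 5.20. Among the called markers Tbx3 and Tcl1 were detected in OG2 alone and Fgf5 in EpiSC alone, so the filter fixed their direction. Esrrb, Zfp42, Klf4, Pou3f1 and Lefty1 were detected on all 3 arrays. Of 16 fibroblast markers, which would reveal feeders, 15 had a probe and 8 were measured. Col1a2, Col3a1, Pdgfrb, Postn, Twist2, Prrx1 and Fap were not detected on any array, and Fbn1 had no probe in the table. The summed signal of the measured ones was 1024 in E3 and 983 in T9, compared with 1001 in OG2. These sums include background, which makes up much of them: the median probe read 89.2 in E3, 88.6 in T9 and 87.5 in OG2. Single markers went both ways, with Thy1 at 286, 121 and 101 and Col1a1 at 90.9, 103 and 146. The sums therefore cannot decide how many feeders remained.

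Of the 9 genes with a detected probe, 6 were at least 2-fold higher in both EpiSC lines than in OG2 and 0 were lower by that size. Over all 8688 measured genes 6.77% were at least 2-fold higher in both lines. The genes were chosen from this contrast, so the count describes them and is not tested, and Egln1 and Egln3 entered it through detection in EpiSC alone. Among genes detected on all 3 arrays the count was 4 of 7, and 6.11% over all such genes. The array signal is the mean brightness of a probe's beads in arbitrary units, background included. Differences are given on the log2 scale after background correction and normalization. That scale understates the differences of dim probes. In whole cultures, fewer cells of a type and less RNA per cell cannot be told apart.

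**Figure D1:**
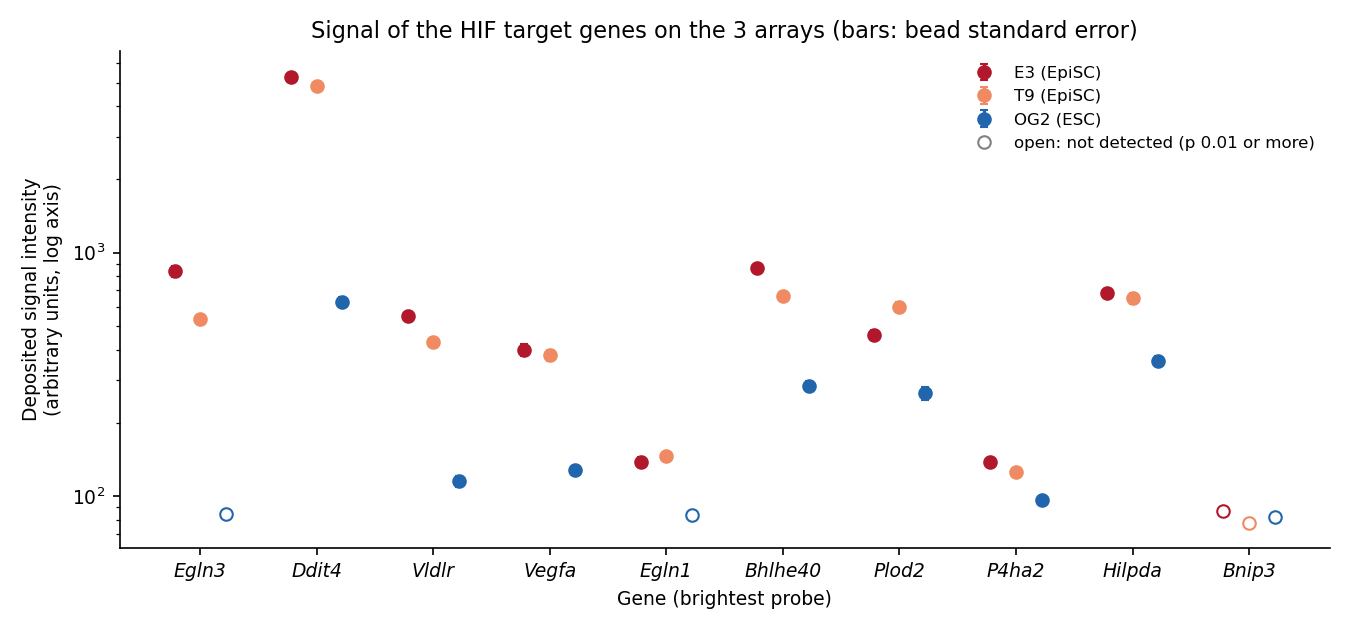
Deposited signal (arbitrary units, log axis) of the probe with the highest mean level for each of the 10 genes in E3, T9 and OG2, with the bead standard error as bars and open symbols where the probe was not detected. In the 9 measured genes both EpiSC lines lie above OG2 (P4ha2 at 138 and 125 against 96.5, Ddit4 at 5269.5 and 4827 against 629), and Bnip3 is open on all arrays.

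Egln3, a hydroxylase gene strongly induced by hypoxia in many cells, had a bright and a dim probe. The brighter probe gave signals of 838 ± 40.9 in E3 and 532 ± 19.8 in T9, compared with 84.6 ± 2.23 in OG2 (bead standard error, 1 array each). It was detected in both EpiSC lines and was not well above background in OG2. The mean of E3 and T9 exceeded OG2 by at least 20.03-fold, a bound set by the dimmest detected signal of the OG2 array. The measured difference from OG2 was 5.16 for E3 and 4.43 for T9, against an OG2 signal within background. A second Egln3 probe stayed close to background, with 99.5 for E3, 90.7 for T9 and 84.8 for OG2, and was detected only in E3. The probes of this gene therefore disagreed in size, and their mean difference was 2.62, below the 3.02 of Ddit4.

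Egln1, which encodes the main HIF hydroxylase of most cells, was also detected only in EpiSC. Its brightest probe gave 138 ± 6.82 in E3 and 146 ± 6.67 in T9, compared with 83.6 ± 3.40 in OG2. The EpiSC lines lay close together and above OG2, which was not well above background, so the difference was at least 2.55-fold. A second probe gave 122 in E3 and 118 in T9, compared with 80.0 in OG2 (at least 1.82-fold). The remaining probe gave 108 in E3 and 90.8 in T9 and 89.2 in OG2, and was detected only in E3. For Egln1 and Egln3 the detection filter was passed through EpiSC only, which fixed their direction. Egln2, the remaining hydroxylase of the family and no HIF target in most cells, had levels of 5.13 in E3 and 5.59 in T9, compared with 5.83 in OG2, a difference of -0.47 ± 0.32 that did not pass the test (limma adjusted p = 0.431). Hif1an, which hydroxylates an asparagine of HIF, was not detected on any array.

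Vegfa, the main growth factor for blood vessels, gave signals of 399 ± 23.0 in E3 and 378 ± 18.6 in T9, compared with 128 ± 4.81 in OG2. Both EpiSC lines were higher, by 2.33 (5.04-fold) for E3 and 2.23 (4.69-fold) for T9, and the lines differed from each other by 0.69 times their combined bead standard error. A second probe gave 135 in E3 and 141 in T9 and was not well above background in OG2 at 88.3, at least 2.42-fold. Its remaining probe was not detected on any array. In the upstream windows of Vegfa the first start had no match to the core motif and the second had 2.

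Of 9 listed relatives and receptors of Vegfa 6 were measured, of which 1 fell and 5 did not pass. Over all measured genes 0.299% rose and 0.921% fell. At an unadjusted p under 0.05 (limma), 2 of the 6 were higher and 1 lower, against 12% and 12.2% of all measured genes. The gene that fell was Vegfc, a growth factor for lymphatic vessels. Its levels were 4.92 in E3 and 5.40 in T9, compared with 8.44 in OG2, and it fell by 3.28 ± 0.33 log2 units (standard error from limma, adjusted p = 0.0495, lower in both lines). The call was lost with an offset of 50 (adjusted p = 0.0509), the mean of a gene's probes (0.0565), no filter (0.126) or the authors' values (0.171). Its direction was thus opposite to that of Vegfa. The receptor gene Flt1, itself a HIF target, lay at 6.87 in E3 and 7.35 in T9 and not well above background in OG2, at least 4.72-fold (adjusted p = 0.0711). Vegfb differed by 1.48 ± 0.31 (adjusted p = 0.106) and Vegfd by 0.41 ± 0.25 (adjusted p = 0.397). Kdr, the main receptor of Vegfa on endothelium, was detected only in E3, at 4.90.

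Vldlr encodes a lipoprotein receptor that also binds the guidance protein reelin. Its probe with the highest mean level gave 549 ± 21.6 in E3 and 431 ± 16.9 in T9, compared with 115 ± 5.72 in OG2. Both EpiSC lines were above OG2, by 3.20 for E3 (9.19-fold) and 2.78 for T9 (6.88-fold), and E3 was above T9. Further probes gave 598 and 389.6 against 102, and 439 and 331 against 100.3, and placed the lines in the same order. Another probe was detected in EpiSC only, at 101 and 96.4 against 84.1 (at least 1.10-fold), and the last on no array. Thus the 3 probes detected on all arrays differed by 2.78 to 3.74, and the dim one by 0.74 for E3 and 0.53 for T9. Neither of the upstream windows of Vldlr held the core motif.

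Over all measured genes, 12% were higher and 12.2% lower at an unadjusted p under 0.05, and the unadjusted counts of each list stand against these shares. Of 13 entries of the LDL receptor family around Vldlr 9 were measured, and 0 passed the limma test in either direction (unadjusted p under 0.05 for 1 higher and 2 lower). Lrp6, a coreceptor of Wnt signalling, was detected in OG2 alone (at least 2.05-fold lower in EpiSC, adjusted p = 0.115). The sorting receptor gene Sorl1 differed by -1.77 ± 0.52 (adjusted p = 0.167), Lrp11 by 1.00 ± 0.33 (adjusted p = 0.192), and Lrp4 by 0.54 ± 0.33 (adjusted p = 0.393). Reln, which encodes reelin, was detected in T9 alone and close to background. The list median was 0.21, against 0.047 over all measured genes.

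Ddit4, also called REDD1, restrains the growth kinase complex mTORC1. Its probe gave 5269.5 ± 193 in E3 and 4827 ± 152 in T9, compared with 629 ± 30.8 in OG2. The EpiSC lines did not differ beyond 2 combined bead standard errors (1.80), and both were far above OG2. The differences from OG2 were 2.99 (7.97-fold) for E3 and 3.05 (8.28-fold) for T9. Ddit4 had 1 probe, so no second measurement was at hand. Its upstream window held ACGTG at -187 and GCGTG at -115 from the start.

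None of 10 other measured genes around mTORC1 restraint passed the limma test (unadjusted p under 0.05 for 0 higher and 1 lower), and their median difference was -0.42. Tsc2, a subunit of the complex through which Ddit4 acts, lay at 8.16 in E3 and 8.13 in T9, compared with 9.15 in OG2 (adjusted p = 0.139). The sestrin gene Sesn2 differed by -0.76 ± 0.29 (adjusted p = 0.229), and Sesn3 was detected in OG2 alone (at least 1.05-fold lower in EpiSC, adjusted p = 0.285). Txnip differed by 0.79 ± 0.40 (adjusted p = 0.314), and the kinase activator gene Rheb and the mTORC1 subunit gene Akt1s1 by 0.29 ± 0.26 and 0.25 ± 0.25. Ddit4 and Vegfa are also induced by the stress factor Atf4. Of 9 measured genes of that pathway 0 passed the limma test (unadjusted p under 0.05 for 4 higher and 1 lower), and they lay on both sides, with Chac1 at 2.17 ± 0.27 (adjusted p = 0.0621), Atf3 at 1.24 ± 0.28 and Psat1 at 1.19 ± 0.27, against Ddit3 at -1.35 ± 0.25, Trib3 at -0.72 ± 0.38 and Sesn2. Atf4 itself was far apart between the EpiSC lines, at 9.88 in E3 and 6.80 in T9, compared with 9.76 in OG2. The part of this pathway in the Ddit4 difference was not tested.

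Bhlhe40 encodes a repressor that acts on the circadian clock and binds the CACGTG hexamer. It gave 865 ± 31.5 in E3 and 663 ± 27.4 in T9, compared with 283 ± 13.5 in OG2. Both EpiSC lines were higher, E3 by 1.80 (3.47-fold) and T9 by 1.37 (2.58-fold), and E3 was above T9 by 4.85 combined bead standard errors. Its close relative Bhlhe41 was not detected on any array.

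Of 12 clock genes 10 were measured, and 0 passed the limma test (unadjusted p under 0.05 for 3 higher and 2 lower). The activator genes Clock and Arntl (also called Bmal1) lay below OG2, at -0.92 ± 0.29 and -1.69 ± 0.25 (adjusted p = 0.178 and 0.0781). Arntl was detected in OG2 alone (at least 3.20-fold lower in EpiSC). Per2 was at least 3.08-fold higher (not well above background in OG2, adjusted p = 0.0926), and Dbp and Per1 differed by 1.22 ± 0.30 and 1.04 ± 0.28. Cry2 (0.04 ± 0.25), Nr1d1 (0.061 ± 0.29) and Nr1d2 (-0.14 ± 0.26) lay near 0, and Per3 lay at 0.53 for E3 and -0.23 for T9. The list median was 0.11.

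Hilpda encodes a small lipid droplet protein that inhibits the breakdown of stored fat. Its brighter probe gave 683 ± 29.3 in E3 and 649 ± 32.6 in T9, compared with 360.0 ± 14.7 in OG2. Both EpiSC lines were above OG2, by 0.96 (1.94-fold) and 0.88 (1.84-fold), just short of 2-fold, and the lines did not differ beyond 2 combined bead standard errors. The second probe gave 160.2 in E3 and 159 in T9, compared with 134 in OG2, in the same direction with differences of 0.40 and 0.33. Of 10 measured lipid droplet genes 0 passed the limma test (unadjusted p under 0.05 for 2 higher and 1 lower). Dgat2, an enzyme of triglyceride synthesis, differed by 2.06 ± 0.26 (adjusted p = 0.065), Abhd5 by 0.78 ± 0.26 and G0s2, another inhibitor of fat breakdown, by 0.34 ± 0.26, while Fitm2 differed by -0.68 ± 0.26 and the droplet coat gene Plin3 by -0.43 ± 0.25. Cidea, which promotes the fusion of lipid droplets, was detected in OG2 alone and was the 1 lower gene (at least 4.01-fold lower in EpiSC, adjusted p = 0.0632).

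Bnip3, which marks mitochondria for removal, could not be measured. Its only probe gave 86.3 in E3, 77.7 in T9 and 82.1 in OG2, with detection p from 0.138 to 0.848, so a difference was not detectable. Its upstream window held 5 matches to the core motif, the most among the 11 windows. The related receptor Bnip3l, also a HIF target, was bright on all arrays, with levels of 11.09 in E3 and 11.06 in T9, compared with 8.90 in OG2. Its difference of 2.18 ± 0.25 (4.52-fold, higher in both lines) did not pass the test (limma adjusted p = 0.0604). None of the 10 measured mitophagy genes passed (unadjusted p under 0.05 for 3 higher and 0 lower). Fundc1, a further mitochondrial receptor, differed by 0.89 ± 0.25 (adjusted p = 0.158) and Gabarapl1, which couples cargo to the autophagosome, by 1.03 ± 0.32 (adjusted p = 0.179), whereas Phb2 and Pink1 differed by -0.43 ± 0.25 and -0.22 ± 0.26.

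Plod2 and P4ha2 modify collagen in the endoplasmic reticulum. Plod2, a lysyl hydroxylase whose product favours stable crosslinks, gave 461 ± 19.2 in E3 and 598 ± 25.9 in T9, compared with 264 ± 16.7 in OG2. Here T9 was the higher EpiSC line, by 4.26 combined bead standard errors, and both lay above OG2, by 0.91 for E3 and 1.34 for T9. P4ha2, the catalytic subunit of a prolyl hydroxylase that stabilises the collagen helix, was dim, at 138 ± 5.88 in E3 and 125 ± 4.30 in T9, compared with 96.5 ± 3.44 in OG2. It was detected on all arrays, and its differences were 1.14 (2.21-fold) for E3 and 0.82 (1.76-fold) for T9. Each of these genes had 1 probe, and each was past 2-fold in only 1 EpiSC line.

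The wider set of collagen hydroxylation and crosslinking genes lay on both sides of OG2. Of 13 measured genes 1 fell, against 0.921% of all measured genes, and 12 did not pass (unadjusted p under 0.05 for 3 higher and 3 lower). The crosslinking enzyme gene Lox, a HIF target too, fell and was not well above background in either EpiSC line, at least 11.5-fold lower (limma difference -3.70 ± 0.28, adjusted p = 0.0342, lower in both lines), with a level of 8.34 in OG2. The call was lost with no filter (adjusted p = 0.119) or the authors' values (0.16). Lox passed the filter through OG2 alone, which fixed its direction. Nothing is therefore read from its contrast with Plod2 and P4ha2, which were higher in EpiSC. Its relative Loxl2 differed by 1.42 ± 0.27 (adjusted p = 0.0979) and P4ha1, the sister subunit of P4ha2, was well above background in EpiSC alone (at least 2.11-fold, adjusted p = 0.149). P3h3 was also detected in EpiSC only (at least 1.53-fold, adjusted p = 0.139). Crtap differed by -2.29 ± 0.36 (adjusted p = 0.0818) and Colgalt1 by -0.84 ± 0.25 (adjusted p = 0.172). Fibroblasts express many of these enzymes. Of the 8 measured fibroblast markers 4 were detected in E3 and 7 in T9, compared with 7 in OG2. Col1a1 lay below detection in E3 and at 5.16 in T9, compared with 6.39 in OG2, Dcn at 6.49 and 5.79 against 7.10, Col6a1 at 4.90 and 5.78 against 4.88, and Thy1 at 7.77 and 5.74 against 5.20. No fibroblast marker passed the limma test (unadjusted p under 0.05 for 0 higher and 1 lower).

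**Figure D2:**
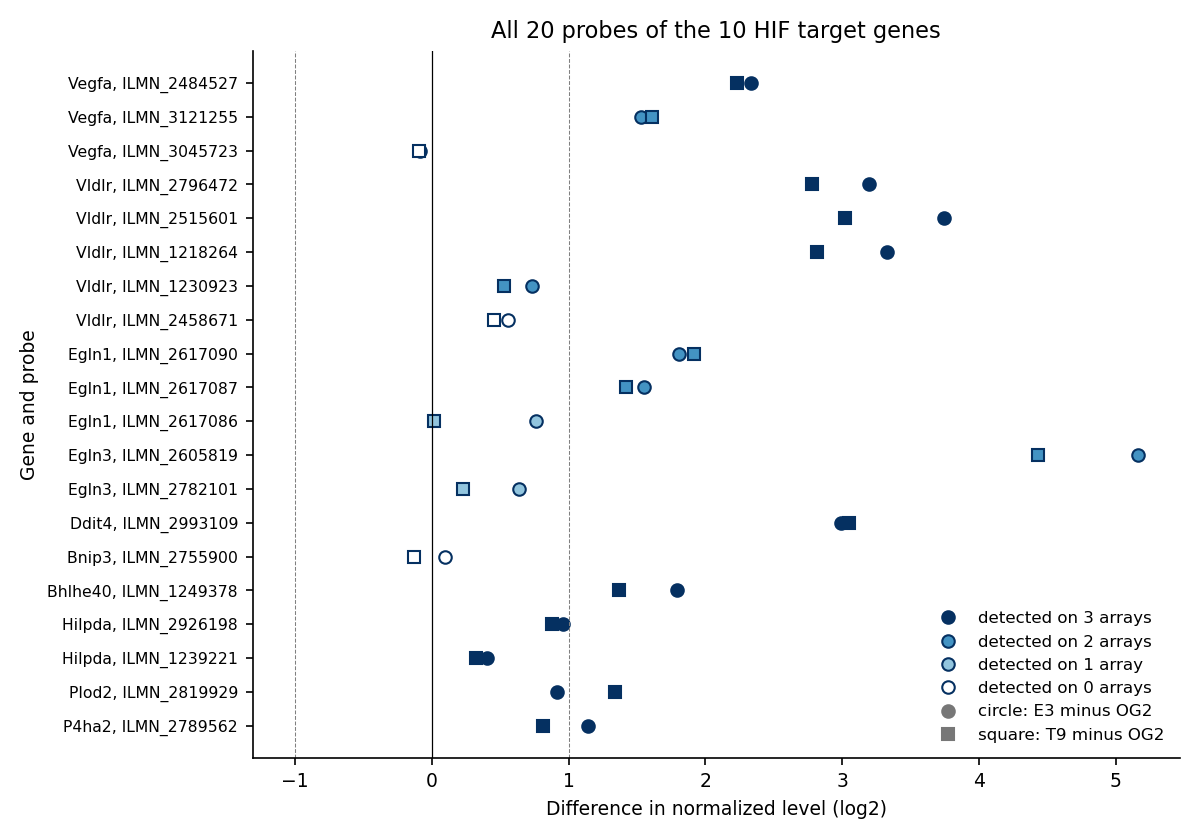
Difference of E3 (circles) and T9 (squares) from OG2 in normalized log2 level for all 20 probes, shaded by the number of arrays on which the probe was detected (dashed lines at 2-fold). All 17 tested probes lie above 0 in both lines, the brighter Egln3 probe furthest at 5.16 and 4.43 and the second Hilpda probe at 0.40 and 0.33.

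Of the 20 probes, 10 were detected on all 3 arrays, 5 on 2, 2 on 1 and 3 on none, which left 17 tested probes. All 17 were above OG2 in both EpiSC lines, as were 42% of all 12603 tested probes. Since 7 of the 17 were not detected in OG2 and passed the filter through EpiSC, and the genes were chosen from this contrast, nothing is read from this count. The 10 probes detected on all arrays also lay above OG2, as did 41.4% of all such probes. Ordered by their mean difference over the EpiSC lines, the 7 genes detected on all arrays ran from Ddit4 with 3.02 ± 0.039 (SD, 2 lines against the same OG2 array) through Vldlr with 2.99 ± 0.29, Vegfa with 2.28 ± 0.075, Bhlhe40 with 1.58 ± 0.30, Plod2 with 1.13 ± 0.30 and P4ha2 with 0.98 ± 0.23 to Hilpda with 0.92 ± 0.056. Neighbours closer than this spread were Ddit4 and Vldlr, and P4ha2 and Hilpda, with Plod2 within its spread of both. The spread leaves out the error of the OG2 array, which both lines share, so it cannot decide the order. With the authors' values Vldlr (3.36) stood above Ddit4 (3.05) and P4ha2 (1.45) above Plod2 (1.16). Egln3 and Egln1 have only lower bounds, 4.32 and 1.35 on the log2 scale for their brighter probes, so the place of Egln1 in this order is not determined. By the mean of its probes Egln3 stood at 2.62, below Ddit4 at 3.02, so its place depends on the probe.

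Between the EpiSC lines, which have 1 array each and no test, 0 of the 9 genes were 2-fold apart, near the share of 5.79% over all measured genes. Line and background (hybrid for E3, 129 for T9) cannot be told apart here. By the probe with the highest mean level, the largest difference was that of Egln3, higher in E3 by 0.73, and 11.9% of genes were further apart. The Egln1 probe detected only in E3 was 0.75 higher there, and a further Vldlr probe was 0.73 higher in E3. For Bhlhe40, Plod2 and Vldlr between 30.9% and 31.9% of genes were further apart. Bhlhe40 (0.43), Vldlr (0.42) and P4ha2 (0.33) were higher in E3, and Plod2 was higher in T9 (E3 minus T9 of -0.43). Vegfa, Hilpda, Egln1 and Ddit4 differed by 0.11 or less, and for Ddit4 and Egln1 the line that was higher changed with the scaling or the choice of probes. On the deposited signals of the probes with the highest mean level 4 of the 9 differed by more than 2 combined bead standard errors. These were Egln3, Bhlhe40, Vldlr and Plod2, and the Egln1 probe detected only in E3 did so too (3.35). This measure covers error within an array only.

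**Figure D3:**
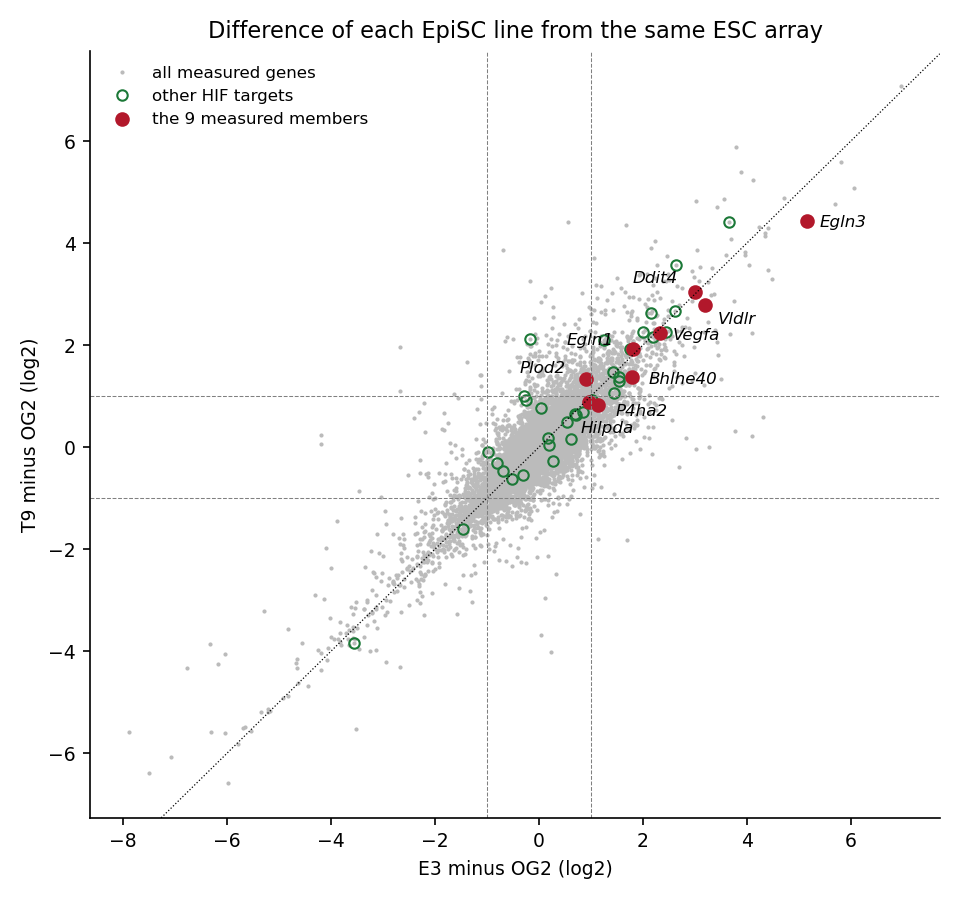
Difference of T9 from OG2 against that of E3 from OG2 (log2, both axes) for all 8688 measured genes (grey), 33 other HIF targets (green rings) and the 9 measured genes described here (red). Both axes share the OG2 array, the dotted line is equality and dashed lines mark 2-fold. The red points run from Hilpda at 0.96 and 0.88 to Egln3 at 5.16 and 4.43.

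Of 22 listed genes of HIF and its regulators 17 were measured and 0 passed the limma test (unadjusted p under 0.05 for 1 higher and 2 lower), with 0 past 2-fold in both lines in either direction. Hif1a, the most widely expressed alpha subunit, lay at 6.03 in E3 and 6.17 in T9, compared with 6.94 in OG2, a difference of -0.84 ± 0.26 (adjusted p = 0.173). Epas1, which encodes HIF-2 alpha, was detected only in OG2 (at least 1.33-fold lower in EpiSC, adjusted p = 0.134), as was Hif3a, a further alpha subunit (at least 1.36-fold lower, adjusted p = 0.235). Arnt lay at 6.41 in E3 and 5.67 in T9, compared with 5.84 in OG2. Vhl was near background throughout, at 4.81 and 4.88 against 4.70. Among the subunits of the Vhl ligase, Eloc differed by 1.00 ± 0.28 (adjusted p = 0.156), Cul2 by 0.39 ± 0.27, Rbx1 by 0.23 ± 0.26 and Elob by -0.63 ± 0.27 (adjusted p = 0.26). The chaperone gene Hsp90aa1 differed by -1.35 ± 0.52 (adjusted p = 0.235). HIF alpha is regulated mainly as a protein, which these arrays do not measure.

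Other known HIF targets outside glycolysis were taken from a list of 46, of which 33 were measured. With limma 1 rose and 1 fell among them, where 0.299% of all measured genes rose and 0.921% fell. Stc2, which encodes a secreted glycoprotein induced by stress, rose by 2.64 ± 0.25 (6.23-fold, adjusted p = 0.0461), with levels of 8.41 in E3 and 8.46 in T9, compared with 5.80 in OG2. The Stc2 call was lost with an offset of 50 (adjusted p = 0.0509), the mean of a gene's probes (0.0506), no filter (0.112) or the authors' values (0.16). Lox fell, as given above. Ndrg1, a stress-responsive gene of cell differentiation, lay at 9.12 in E3 and 9.87 in T9, compared with 5.45 in OG2, a difference of 4.04 ± 0.41 with an adjusted p of 0.052. Igfbp3, a binding protein for insulin-like growth factors, differed by 3.10 ± 0.47 (adjusted p = 0.0789). At an unadjusted p under 0.05, 15 were higher and 2 lower, against 12% and 12.2% of all genes. Of the 15, 6 were not detected in OG2, and the 2 lower ones, Lox and Edn1, were detected in OG2 alone. The filter fixed the direction of these genes. Among the 19 targets detected on all 3 arrays 10 had an unadjusted p under 0.05 in either direction, as had 2227 of 9347 such probes.

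By size, 13 of the 33 were at least 2-fold higher in both EpiSC lines and 2, Lox and Edn1, at least 2-fold lower, against 6.77% and 7.07% of all measured genes. Of the 13, 6 were not detected in OG2 and entered through EpiSC alone. Lox and Edn1 were detected in OG2 alone and entered through it, which fixed their direction (Edn1 at least 2.40-fold lower in EpiSC). Among targets detected on all 3 arrays 7 of 19 were at least 2-fold higher in both lines, and 6.11% over all such genes. Edn1 encodes the vessel-constricting peptide endothelin. The list median was 0.67, with 0.69 for E3 and 0.92 for T9, against 0.047 over all genes. Not every target lay above OG2: the histone demethylase gene Kdm3a differed by -0.58 ± 0.26 (adjusted p = 0.273).

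**Figure D4:**
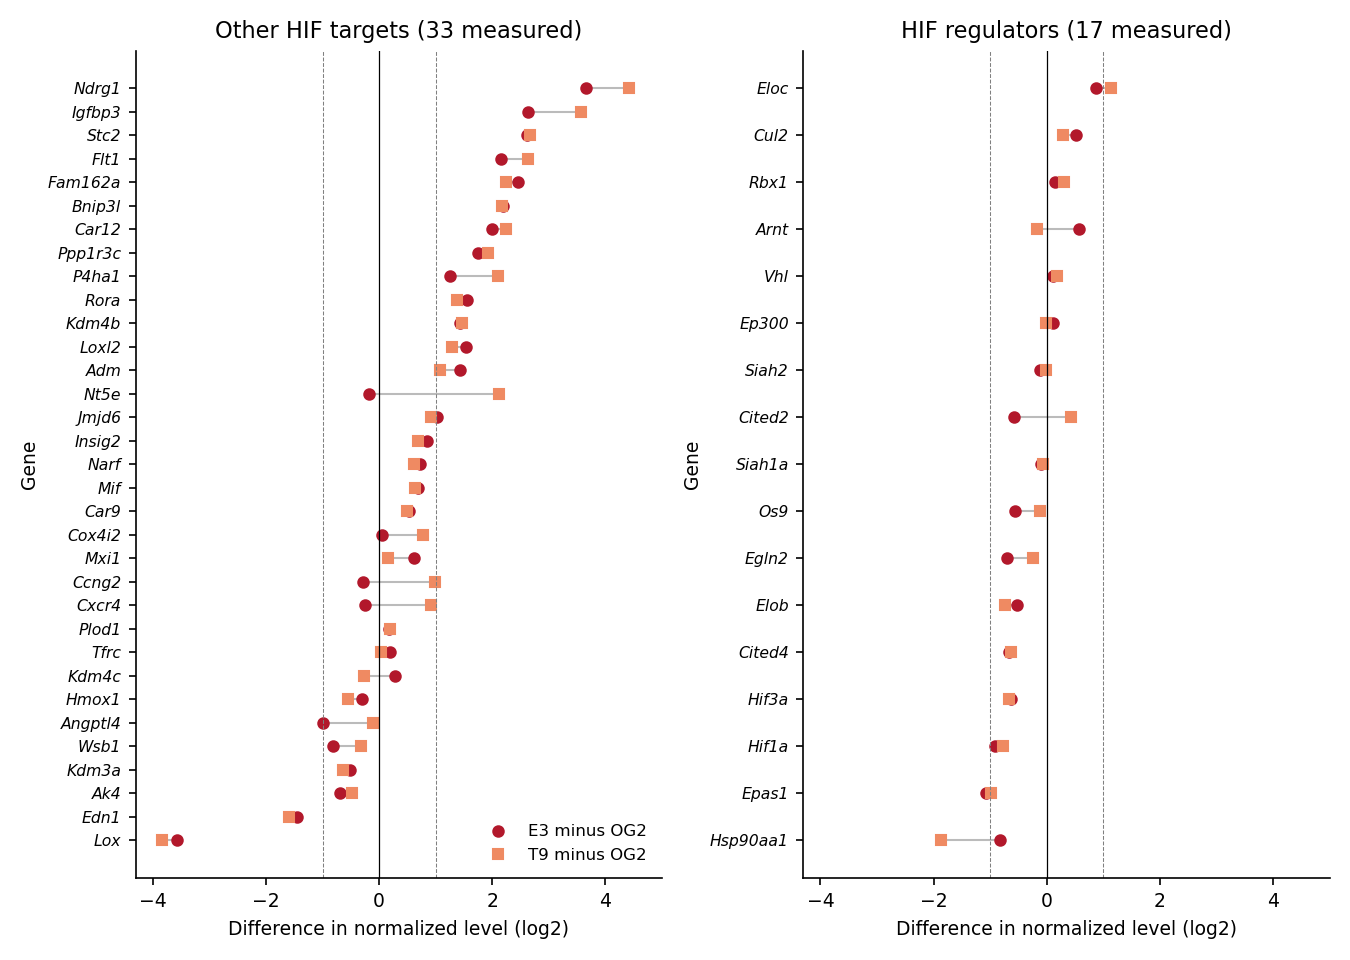
Difference of E3 (circles) and T9 (squares) from OG2 in normalized log2 level for 33 other HIF targets (left) and 17 HIF regulators (right), sorted by the mean, with dashed lines at 2-fold. The targets run from Lox at -3.57 and -3.84 to Ndrg1 at 3.66 and 4.42, and no regulator passes 2-fold in both lines in the same direction.

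The genes outside the set whose differences from OG2 came nearest to the median of the 9 genes (1.81 for E3 and 1.91 for T9, which is the pair of Egln1, measured against an OG2 signal within background), among genes detected on all 3 arrays, were Nenf, Msmo1, Lmo4, Spata24 and St6gal1. Their Euclidean distances to that pair lay between 0.037 and 0.11 on the log2 scale. With 3 arrays such a likeness is a description of these lines alone.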

How the data were processed

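The deposited scanner tables hold, per the file headers, a signal intensity per probe, its bead standard error and a detection p-value. The deposited intensity is on a linear scale, with lowest values of 66.7 to 70.5, and differs in median between arrays. The deposited detection p-values move in steps of 1 in 798. BeadStudio was used per the submitters' processing notes, with no version stated there. The headers of the OG2 table read O2. Replicate numbers are names only.

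Signals were corrected with limma 3.58.1 (nec, background from detection p, offset 16), taken to log2 and quantile normalized (R 4.3.3). The test took the 12603 probes whose detection p fell under 0.01 on 1 or more arrays, and a gene was represented by the probe with the highest mean level (8688 genes). Of 25697 probes 23978 had 1 gene symbol, 0 several and 1719 none. limma compared E3 and T9 with OG2 (two-sided, 1 residual degree of freedom, Benjamini-Hochberg adjusted p under 0.05 over all probes), which called 145 probes, 1.15%. Its p-values rest on the spread between 2 lines, which is not that of repeat cultures. limma also drew the variance of each probe toward a value shared over all probes. The standard errors are therefore not the spread of a single gene: Stc2 had 0.25 with E3 minus T9 of -0.049. On 12603 simulated probes, of which 200 were changed, changes of 4 on the log2 scale were called for 56% of 50. Changes of 2, 1 or 0.5 were called for 0%, with 1 false call. In the data 2928 probes had an unadjusted p under 0.05. The adjusted p depends on that share, so the simulated rates do not carry over to these data.

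The genes described and all gene lists were chosen with earlier results of these data known. The naming rule took every probe of the 10 genes, listed genes past the threshold, the 3 highest and 3 lowest of each list by the smaller line difference (same sign in both lines, detected in at least 1 of the 3 lines), and the HIF subunits and hydroxylases. Elob, Hif3a, Bhlhe41, Kdr, Cry2, Nr1d1, Per3 and Atf4 were named after their values were seen. Bounds ("at least") set the dim side at the lowest detected level of its array. Alternatives covered scaling, background, filters, probe choice, variance trend, the authors' processed intensity table and each EpiSC line left out.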

Additional observations from a re-analysis of the deposited data

How the results depend on the processing

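No paired analysis was possible because OG2 is the only ESC array. Among 12603 probes, 145 passed (36 higher, 109 lower), against 296 with median scaling (110 and 186), 344 with cyclic loess (122 and 222), 351 with a detection p under 0.05 (127 and 224), 256 with an intensity trend (92 and 164), 93 among probes detected on all 3 arrays (35 and 58), 95 with the mean of a gene's probes (23 and 72), and 0 by limma with no filter or with the authors' processed values, where 4462 and 2899 had an unadjusted p under 0.05. Other HIF targets past the threshold numbered 2, against 5 with median scaling (4 higher), 7 with cyclic loess (6 higher), 5 with a trend (4 higher), 7 with a detection p under 0.05 (6 higher), 4 with no background correction (3 higher), 1 each with an offset of 50 or the mean of probes (Lox), and 0 with no filter or the authors' values (unadjusted 22 and 19). An offset of 50 called 98 probes (21 and 77) and no background correction 183 (53 and 130). Among the 19 targets detected on all 3 arrays 3 passed, all of them higher, and Lox was not tested there. The regulators gave 0 under each alternative run. The cause was not tested. Stc2 had an adjusted p between 0.0275 and 0.16, Vegfc between 0.0281 and 0.171 and Lox between 0.017 and 0.16, each with its direction kept. Targets 2-fold higher in both lines numbered 13, against 6 with no background correction and 7 of 19 when detected on all 3 arrays.

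Of the 9 described genes, 6 were 2-fold higher in both lines, against 4 (of 7) to 7 under the alternatives. With E3 or T9 left out the count was 7. The rule then asked for 2-fold in the 1 line kept, so this count could not fall below 6. That setting was chosen after seeing the data, as was the repeat of the targets' size count. With either line left out no residual degrees of freedom remain, so limma was not run. Every gene kept its direction against OG2 under each alternative run. Sizes of dim probes moved with the background: Egln1 differed by 0.73 with no background correction and 3.14 with the authors' values, Egln3 by 2.93 and 6.36, and P4ha2 by 0.41 and 1.45. The mean of its probes put Egln3 at 2.62, whereas Ddit4 stayed between 2.89 and 3.13. None became 2-fold apart between E3 and T9.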
